A study of Homo sapiens with 6 samples.

Results

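Chromatin accessibility was examined around 10 genes of the NODAL signalling pathway in naive human embryonic stem (nES) cells. The genes were the ligand NODAL, its antagonists LEFTY1 and LEFTY2, the co-receptor TDGF1, the receptors ACVR1B and ACVR2B, the signal transducer SMAD2, its DNA-binding partner FOXH1 and the inhibitors SMAD7 and SKIL. Each region of the deposited count table, called a peak here, was taken if it lay inside one of these genes or within 50 kb of it (GENCODE release 44, hg38). This gave 251 of 171517 peaks, with 27 at NODAL, 31 at LEFTY1, 27 at LEFTY2, 26 at TDGF1, 35 at ACVR1B, 9 at ACVR2B, 14 at SMAD2, 43 at FOXH1, 43 at SMAD7 and 18 at SKIL. LEFTY1 and LEFTY2 are neighbours on chromosome 1 and shared 22 of their peaks. All 251 peaks entered the test, since no filter on low counts was applied. Of the 251, 136 had their nearest protein-coding transcript start at another gene, so a peak is named by its position and by the gene it lies in, and no peak was assigned a target.

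ATAC-seq, which reads open chromatin from where a transposase can insert sequencing adapters, was the only assay used. The cells were of 1 human embryonic stem cell line, H9, kept in tt2iLGö, a serum-free medium with an inhibitor of MEK (PD0325901), an inhibitor of GSK3 (CHIR99021), the protein kinase C inhibitor Gö 6983 and human LIF. They were grown in low oxygen on irradiated mouse fibroblasts, separated from these feeders on gelatin and plated on laminin before treatment. The 3 control libraries had no dm-αKG (their labels name DMSO, the treatment protocol 0 mM), and the other 3 had 4 mM dm-αKG, the cell-permeable dimethyl ester of the metabolite α-ketoglutarate, for 24 h. The libraries are named control 1 to 3 and dm-αKG 1 to 3. The comparison asks how dm-αKG alters the use of regulatory elements in nES cells. The methods describe a single experiment with 3 biological replicates, so the p-values measure the spread between these 6 libraries.

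NODAL is a secreted ligand of the TGFβ family. It binds type II receptors such as ACVR2B and type I receptors such as ACVR1B, and needs the membrane-anchored co-receptor TDGF1 (also called CRIPTO) to do so. The receptors phosphorylate SMAD2, which enters the nucleus with SMAD4 and is brought to DNA by FOXH1. LEFTY1 and LEFTY2 are secreted antagonists that the pathway itself induces, SMAD7 blocks the receptors and SKIL (SnoN) represses SMAD target genes. The pathway sustains pluripotency in human embryonic stem cells and patterns the mesendoderm of the embryo.

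The sequences below are the central 200 bp of peaks on which the results turn, from the forward strand of hg38. They are the peaks with the smallest p downstream of TDGF1 (chr3:46599688-46599887), upstream of LEFTY2 (chr1:225945571-225945770) and at SMAD7 (chr18:48959893-48960092), and the 1 peak that fell at SKIL (chr3:170331273-170331472). Capitals mark exact matches, on either strand, to the FOXH1 word TGTGNATT or the SMAD box CAGACA.
TDGF1 downstream: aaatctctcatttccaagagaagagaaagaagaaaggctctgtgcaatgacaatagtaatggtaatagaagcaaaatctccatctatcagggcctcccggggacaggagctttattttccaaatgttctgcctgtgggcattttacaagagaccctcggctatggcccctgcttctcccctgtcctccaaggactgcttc
LEFTY2 upstream: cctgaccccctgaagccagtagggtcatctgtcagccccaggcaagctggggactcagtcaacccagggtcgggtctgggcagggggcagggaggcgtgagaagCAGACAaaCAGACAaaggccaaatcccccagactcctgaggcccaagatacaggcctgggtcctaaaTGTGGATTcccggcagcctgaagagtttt
SMAD7 upstream: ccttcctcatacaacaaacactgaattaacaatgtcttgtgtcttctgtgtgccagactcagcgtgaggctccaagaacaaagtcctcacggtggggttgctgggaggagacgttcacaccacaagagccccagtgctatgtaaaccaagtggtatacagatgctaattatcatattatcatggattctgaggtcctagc
SKIL upstream: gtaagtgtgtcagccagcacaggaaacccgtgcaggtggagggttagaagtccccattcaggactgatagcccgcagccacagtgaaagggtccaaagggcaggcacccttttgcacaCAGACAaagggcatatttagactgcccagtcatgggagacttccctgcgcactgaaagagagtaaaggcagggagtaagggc

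Accessibility fell at 23 and rose at 7 of the 251 peaks with dm-αKG, and TDGF1 held 10 of the peaks that fell. A peak is said to fall or rise where the adjusted p of edgeR's quasi-likelihood test was below 0.01, with Benjamini-Hochberg adjustment over all 171517 peaks. Of the 251, 9.16% fell and 2.79% rose, against 6.54% and 3.34% of all peaks tested. With a log2 fold change beyond 1 asked for as well, 12 of the 251 (4.78%) were less accessible, against 1.96% of all peaks. None was more accessible by that rule, against 0.782% of all peaks. DESeq2 and limma-voom also gave 0, and 1 peak had an unadjusted p below 0.05 with a log2 fold change above 1. In either direction, 70 of the 251 (27.9%) had an unadjusted p below 0.05 in edgeR, against 30.7% of all peaks. The median log2 fold change was 0.03 over the 251 peaks and 0.01 over all peaks. A lower count in bulk cells cannot tell fewer cells with an open site from less opening per cell.

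The calls were uneven among the 10 genes. TDGF1 had 7 less accessible peaks (26.9% of its peaks), SMAD7 had 4 (9.30%) and SKIL had 1 (5.56%), against 1.96% of all peaks. The other 7 genes had none. Without the 26 peaks of TDGF1, 13 of 225 peaks fell (5.78%) and 7 rose (3.11%), shares near those of all peaks. Median log2 fold changes ran from -0.43 at TDGF1 through -0.18 at LEFTY2 and -0.08 at LEFTY1 to 0.14 at ACVR1B and 0.17 at FOXH1. DESeq2 gave 16 peaks that fell in place of 23, with all 10 of TDGF1's among them, and 1 that rose in place of 7. The shares of all peaks called by DESeq2 or limma-voom were not taken, so a lower count there is not particular to these genes.

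**Figure D1:**
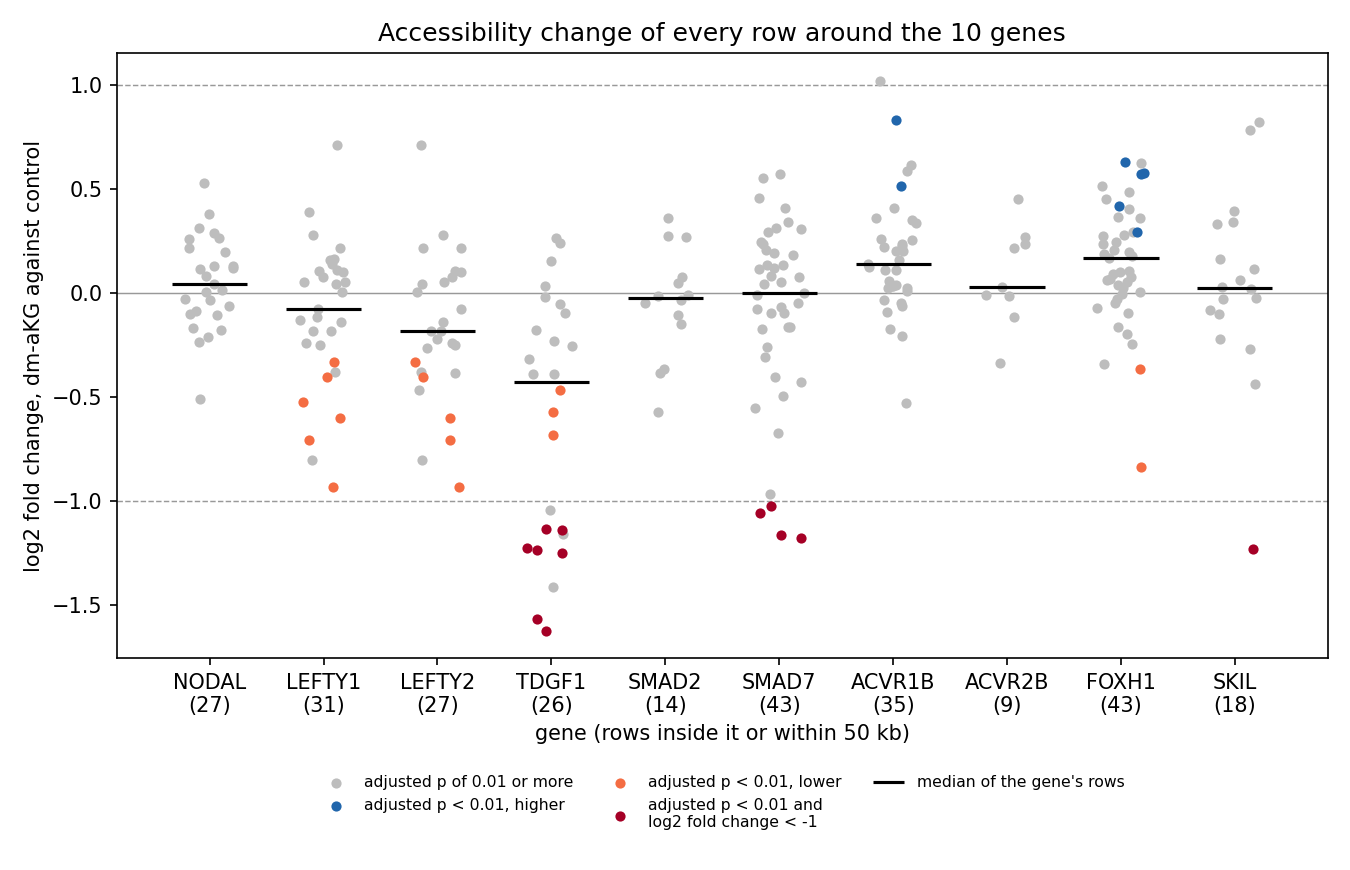
The log2 fold change (dm-αKG against control) of every peak inside or within 50 kb of each of the 10 genes, 1 point a peak, with black bars at each gene's median and the number of peaks in brackets. The peaks of TDGF1 reach -1.62 with a median of -0.43, whereas the medians of the other genes lie between -0.18 and 0.17, and peaks shared by LEFTY1 and LEFTY2 are drawn under both.

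Most of the change lay away from promoters. Of the 251 peaks, 139 had their centre more than 1 kb from every protein-coding transcript start. Of these, 19 fell (13.7%) and 2 rose (1.44%), against 8.42% and 2.86% of all peaks this far out, and 11 of the 19 were less accessible. Among the 112 peaks within 1 kb of such a start, 4 fell (3.57%) and 5 rose (4.46%), against 2.08% and 4.47% of all such peaks, and 1 was less accessible. The same tilt was present over the whole table, where the median log2 fold change was -0.05 beyond 1 kb and 0.10 within it. The peaks of the 10 genes had medians of -0.09 and 0.11.

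NODAL itself showed no called change. None of its 27 peaks passed in edgeR, DESeq2 or limma-voom, and 4, 3 and 4 of them had an unadjusted p below 0.05. In edgeR this was 14.8% of them, against 30.7% of all peaks. The promoter peak, the highest within 1 kb of a start of the gene (chr10:70442559-70442775, in an intron of NODAL, 986 bp upstream of the canonical start) had 834, 785 and 779.8 normalized counts in control and 721, 771 and 869.6 with dm-αKG. A normalized count is the deposited count scaled to the mean effective library size. The groups overlapped, and the log2 fold change was -0.03 ± 0.07 (SE), with edgeR's adjusted p = 0.791. The highest peak away from promoters, 13788 bp upstream (chr10:70455367-70455570), had 839, 898 and 868 normalized counts in control and 864, 917 and 907 with dm-αKG (log2 fold change 0.04 ± 0.07, edgeR's adjusted p = 0.715).

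The NODAL peak with the smallest p lay 11019 bp downstream of the start, past the end of the gene (chr10:70430545-70430779). Its control libraries had 179, 165 and 193 normalized counts, and the dm-αKG libraries had 262, 237 and 184. dm-αKG 3 sat among the controls, and the log2 fold change of 0.38 ± 0.12 did not pass (edgeR's adjusted p = 0.0165). Without that library the log2 fold change was 0.50, with edgeR's adjusted p = 0.0011.

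At the LEFTY genes, 6 of 36 peaks fell (16.7%, against 6.54% of all peaks) and none rose (against 3.34%). No fall exceeded a log2 fold change of -1. Of the 36, 15 (41.7%) had an unadjusted p below 0.05, against 30.7% of all peaks. DESeq2 called 3 of the 6, and 1 of the 6 calls held in all 15 alternative fits.

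The peak 2315 bp upstream of the canonical LEFTY1 start (chr1:225891359-225891562) lay in a LEFTY1 intron, as the gene has an earlier start. It went from 232, 323 and 243 normalized counts to 146, 189 and 209.6. Every dm-αKG value was below every control value (log2 fold change -0.60 ± 0.12, edgeR's adjusted p = 0.00011). Without control 2 the log2 fold change was -0.42 and edgeR's adjusted p = 0.0291, and without dm-αKG 1 they were -0.43 and edgeR's adjusted p = 0.023. Further out, 19835 bp upstream and also in a LEFTY1 intron (chr1:225908881-225909080), a weak peak went from 55.5, 65.8 and 89.9 normalized counts to 35.1, 42.3 and 31.4. It had the largest fold of the LEFTY peaks that fell (log2 fold change -0.93 ± 0.23, edgeR's adjusted p = 0.00194). The call was lost without control 3 (-0.74) and without dm-αKG 1 (-0.89).

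On the LEFTY2 side, both falling peaks were intergenic and upstream. The nearer, 4451 bp from the canonical start (chr1:225945568-225945773), had 542, 581 and 609.8 normalized counts in control and 435, 426 and 522 with dm-αKG. It is the LEFTY2 upstream sequence above. The groups did not overlap, and the level fell to 79.3% of control (log2 fold change -0.33 ± 0.08, edgeR's adjusted p = 0.00122). The call was lost without control 3 (-0.30), dm-αKG 1 (-0.28) or dm-αKG 2 (-0.29). The farther, 9989 bp upstream (chr1:225951109-225951308), went from 281, 269 and 278 normalized counts to 212, 222 and 189, with no overlap of the groups. Its log2 fold change was -0.40 ± 0.11 (edgeR's adjusted p = 0.00418). Of the fits that leave out 1 library, this call held only in the one without dm-αKG 2 (-0.44), and the values without each of the other 5 libraries ran from -0.42 to -0.35.

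A further falling peak of the LEFTY windows lay 7652 bp downstream of the LEFTY1 start, in an intron of TMEM63A, which encodes a mechanically gated ion channel (chr1:225881391-225881597). Its normalized counts were 207, 186 and 196 in control and 139.8, 114 and 156 with dm-αKG, apart in the 2 groups (log2 fold change -0.52 ± 0.13, edgeR's adjusted p = 0.00224). The call was lost without control 1 (-0.47), dm-αKG 1 (-0.54) or dm-αKG 2 (-0.42). The promoter peaks did not pass. LEFTY1's (chr1:225889127-225889330) had a log2 fold change of 0.04 ± 0.07 (edgeR's adjusted p = 0.74) and LEFTY2's (chr1:225941248-225941447, in an exon) 0.08 ± 0.10 (edgeR's adjusted p = 0.658). The peak of both windows away from promoters with the most counts was 423 bp wide and lay in a LEFTY1 intron, 10437 bp upstream of the canonical start (chr1:225899372-225899794). It had 886, 1005 and 1028 normalized counts in control and 838, 840.2 and 901 with dm-αKG. Its log2 fold change of -0.18 ± 0.07 did not pass (edgeR's adjusted p = 0.046).

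**Figure D2:**
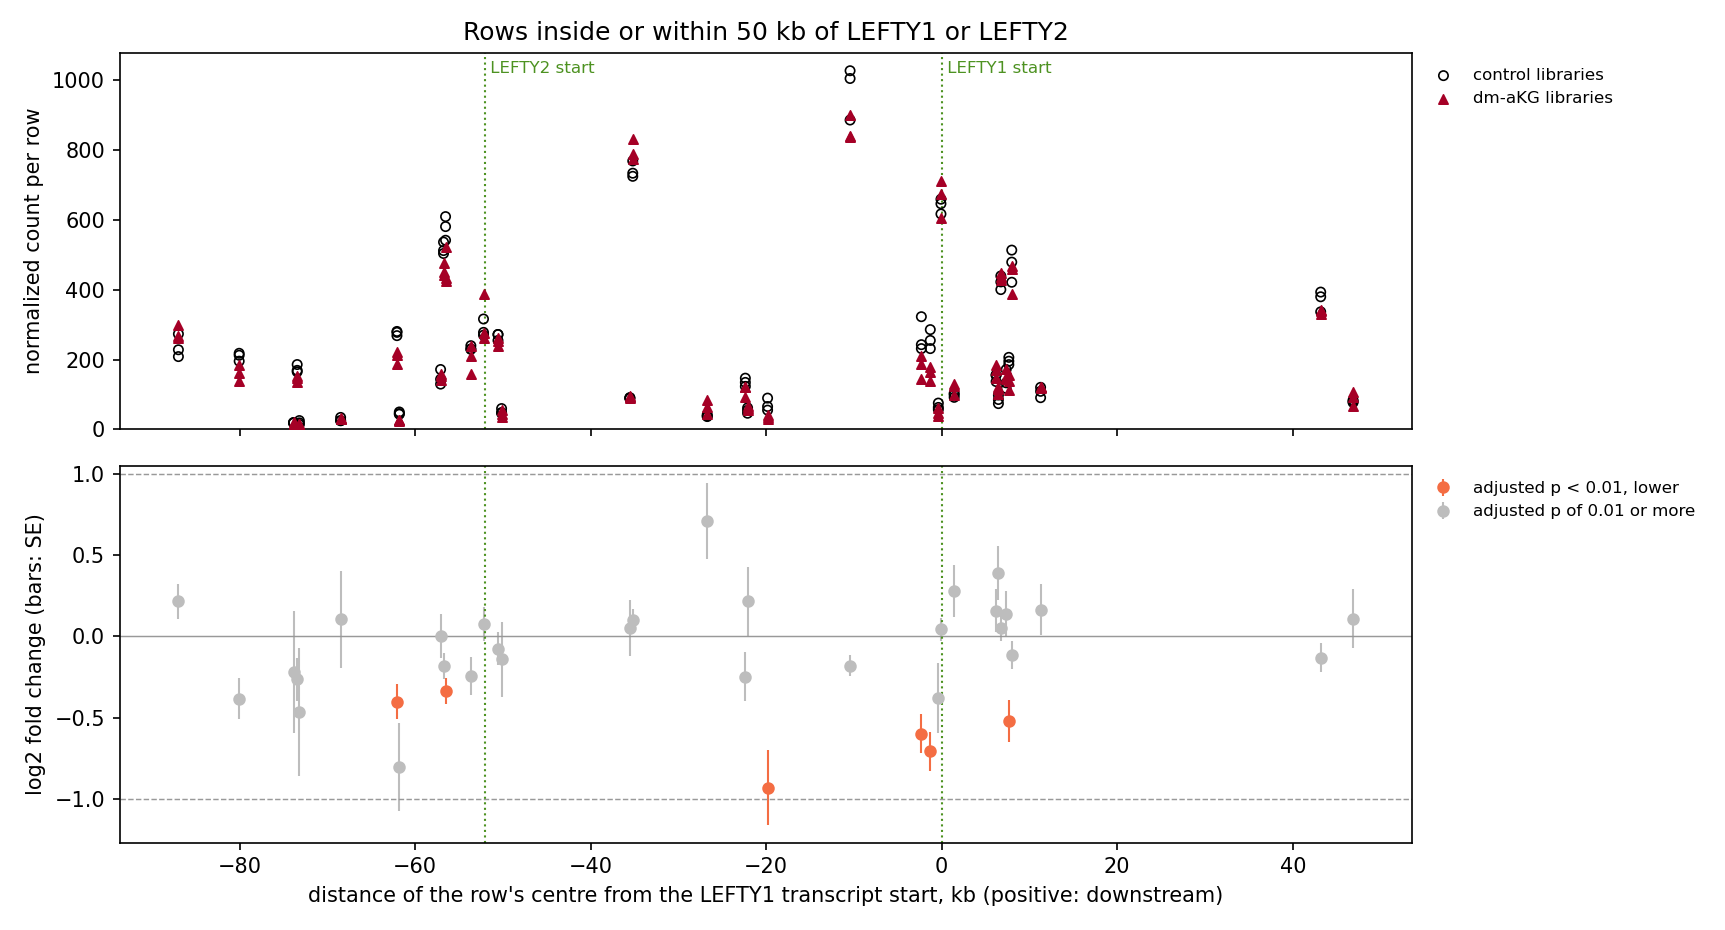
Peaks of the LEFTY1 and LEFTY2 windows by distance in kb from the LEFTY1 canonical start, with normalized counts per library above and log2 fold change with its SE below. Dotted lines mark the 2 starts, whose promoter peaks lie near 0 (0.04 and 0.08), and the 6 peaks that fell lie at other distances, between -0.93 and -0.33.

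TDGF1 had the most falling peaks of the 10 genes, with 10 of 26 falling (38.5%, against 6.54% of all peaks) and none rising. Of the 10, 7 were less accessible (26.9% of the 26, against 1.96% of all peaks). Of its 26 peaks, 15 (57.7%) had an unadjusted p below 0.05, against 30.7% of all peaks. DESeq2 gave the same counts of 10 and 7, and limma-voom 12 and 9. TDGF1 lies within the LRRC2 gene, which encodes a leucine-rich repeat protein and runs on the other strand, and 9 of the 10 peaks lay in LRRC2 introns. Distances here are from the canonical TDGF1 start, which lies inside the gene as annotated. An earlier start of the gene lies farther upstream, at the peak described as its promoter.

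Upstream of TDGF1, 3 peaks were less accessible. The peak 31704 bp upstream (chr3:46545984-46546183) went from 147, 180.0 and 162 normalized counts to 61, 77.0 and 73.3 (log2 fold change -1.24 ± 0.16, edgeR's adjusted p = 3.36e-09). The peak 32946 bp upstream (chr3:46544741-46544943) went from 106, 88.8 and 104 to 41.6, 28.2 and 68.9 normalized counts. Its dm-αKG libraries were the more scattered but stayed below control (log2 fold change -1.14 ± 0.21, edgeR's adjusted p = 1.62e-05). Without dm-αKG 2 its log2 fold change was -0.93, short of the fold threshold.

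Downstream of TDGF1, 5 peaks fell and 4 of them were less accessible. All 5 lay in introns of another protein-coding gene, annotated without a name. The largest fold change of the 251 peaks was 22000 bp downstream (chr3:46599677-46599898, the TDGF1 downstream sequence). There the control libraries had 156, 165 and 148 normalized counts and the dm-αKG libraries 56.7, 48.7 and 43.4. The spread within each group was small beside the gap, and the level fell to 32.5% of control (log2 fold change -1.62 ± 0.17, edgeR's adjusted p = 1.82e-12). Its neighbour at 22276 bp (chr3:46599953-46600174) went from 58.1, 61.7 and 51.0 normalized counts to 22.9, 24.4 and 26.9 (log2 fold change -1.22 ± 0.26, edgeR's adjusted p = 0.000262).

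The other 3 lay farther downstream. At 27020 bp (chr3:46604708-46604907) the normalized counts went from 123, 91.2 and 113 to 38.7, 24.4 and 46.4, a fall to 33.7% of control (log2 fold change -1.57 ± 0.21, edgeR's adjusted p = 5.64e-09). At 30117 bp (chr3:46607802-46608007), within 1 kb of an LRRC2 start and outside its introns, they went from 128, 80.6 and 125 to 38.7, 59.0 and 58.4. Control 2 was the lowest of the controls there, yet above every dm-αKG library (log2 fold change -1.14 ± 0.20, edgeR's adjusted p = 6.94e-06). Without dm-αKG 1 that log2 fold change was -0.90, short of the fold threshold. At 26052 bp (chr3:46603737-46603942) they went from 177, 197 and 192 to 127, 112 and 109 (log2 fold change -0.68 ± 0.14, edgeR's adjusted p = 8.19e-05).

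At the gene's own starts the change was smaller. The promoter peak (chr3:46574399-46574600, at the first TDGF1 start, 3288 bp upstream of the canonical one) had 528, 551 and 446 normalized counts in control and 358, 412 and 343 with dm-αKG. The lowest control library was above the highest dm-αKG library, and the level fell to 72.5% of control (log2 fold change -0.46 ± 0.09, edgeR's adjusted p = 2.17e-05). A peak in the first TDGF1 intron (chr3:46575238-46575447) went from 171, 189.9 and 182 normalized counts to 115, 123 and 130.2 (log2 fold change -0.57 ± 0.14, edgeR's adjusted p = 0.00118). Its call was lost without control 2 (-0.52) and without dm-αKG 1 (-0.51), and the other 9 calls of TDGF1 at adjusted p below 0.01 held in all 15 alternative fits. The weak peak over the canonical start (chr3:46577584-46577783) had 61.7, 67.4 and 61.9 normalized counts in control and 66.0, 75.7 and 73.3 with dm-αKG. Of its 61-base stretches, the length of a read, 62.1% occur elsewhere in hg38, so its counts are uncertain. None of the 30 peaks called had such a stretch.

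The peaks at the LRRC2 start between the upstream stretch and the TDGF1 starts did not pass, unlike the peak described above within 1 kb of another LRRC2 start. Those 12078, 11653 and 11315 bp upstream of the canonical TDGF1 start had log2 fold changes of 0.04, 0.26 and 0.24, and edgeR's adjusted p = 0.838, 0.112 and 0.403. Summed over its 26 peaks, TDGF1 had 3714, 3603 and 3623 normalized counts in control and 2596, 2729 and 2799 with dm-αKG, a log2 ratio of -0.43 with no overlap between groups.

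**Figure D3:**
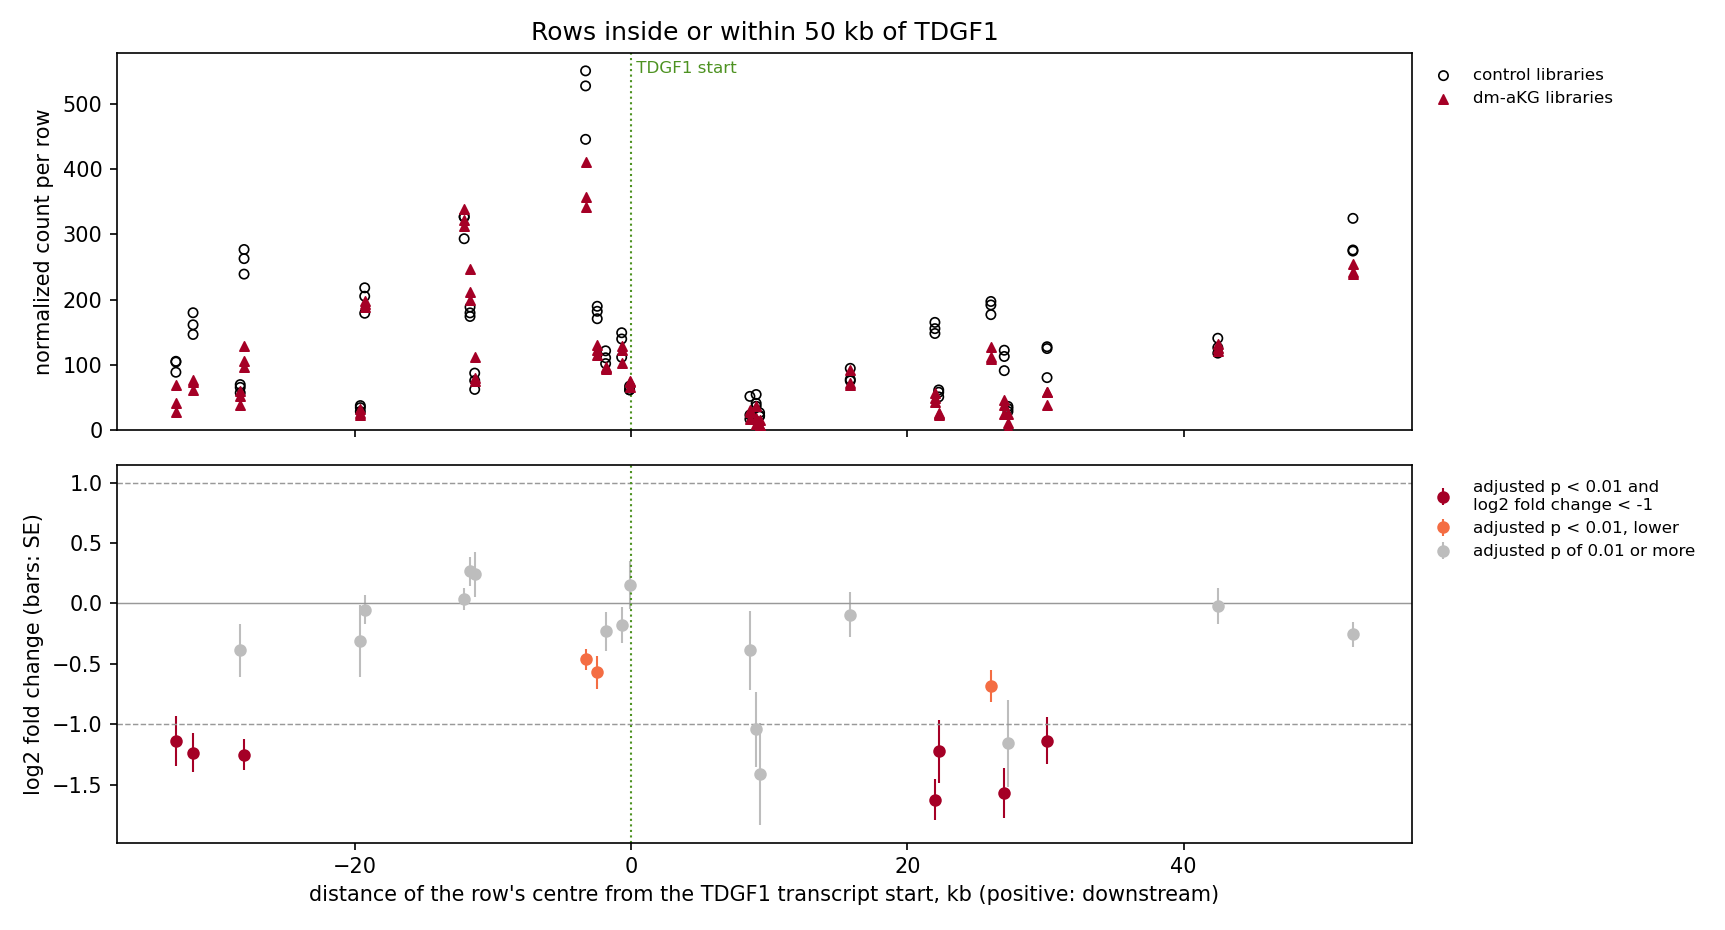
Peaks inside or within 50 kb of TDGF1 by distance in kb from its canonical start, with normalized counts per library above and log2 fold change with its SE below. The 7 less accessible peaks lie in 2 stretches, 3 of them upstream and 4 of them 22000 to 30117 bp downstream. Weak peaks between these stretches, 9061 and 9308 bp downstream, have log2 fold changes of -1.04 and -1.41. They narrowly did not pass (edgeR's adjusted p = 0.0108 and 0.0114). The peaks at the LRRC2 start between the upstream stretch and the TDGF1 start have positive log2 fold changes. The peak 30117 bp downstream lies within 1 kb of another LRRC2 start.

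At the receptors few peaks were called. ACVR1B, the type I receptor also called ALK4, had 35 peaks, of which none fell and 2 rose (5.71%, against 3.34% of all peaks). DESeq2 called 1 of the 2. Every dm-αKG library was above every control library at 11 of the 35 (31.4%, against 15.5% of all peaks). Every dm-αKG library was below every control library at 1 (2.86%, against 16.9%). An unadjusted p below 0.05 was found at 7 of ACVR1B's peaks (20%, against 30.7% of all peaks). Its promoter peak (chr12:51951373-51951573) had 148, 145 and 160.3 normalized counts in control and 156, 185 and 114 with dm-αKG (log2 fold change 0.02 ± 0.14, edgeR's adjusted p = 0.933). Both rising peaks lay in exons of the neighbouring gene TAMALIN, which encodes a scaffold protein. One (chr12:52014610-52014812) went from 43.8, 42.7 and 49.8 normalized counts to 88.9, 88.5 and 59.9 (log2 fold change 0.83 ± 0.21, edgeR's adjusted p = 0.00224). The other (chr12:52014964-52015168) went from 150.3, 136 and 157 to 217, 205 and 204 (log2 fold change 0.51 ± 0.13, edgeR's adjusted p = 0.00154). In both, every dm-αKG library was above every control library. The call of the first was lost without control 1 (0.81), control 2 (0.79), dm-αKG 1 (0.73) or dm-αKG 2 (0.76), and that of the second without control 2 (0.46) or dm-αKG 1 (0.48).

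ACVR2B, a type II receptor, had 9 peaks, none of which passed or had an unadjusted p below 0.05 in edgeR, DESeq2 or limma-voom. Its promoter peak (chr3:38453189-38453398) had 384, 375 and 346 normalized counts in control and 375, 354 and 365 with dm-αKG, which overlap (log2 fold change -0.01 ± 0.09, edgeR's adjusted p = 0.936). The smallest p was in an intron (chr3:38455777-38455977), with a log2 fold change of -0.33 ± 0.19 (edgeR's adjusted p = 0.219).

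None of the 14 SMAD2 peaks passed in edgeR, DESeq2 or limma-voom, and 2, 0 and 4 had an unadjusted p below 0.05 (14.3% in edgeR, against 30.7% of all peaks). DESeq2 gave 1 of the 14 no adjusted p. The promoter peak (chr18:47931121-47931327) had 376, 399 and 369 normalized counts in control and 448, 384 and 364 with dm-αKG (log2 fold change 0.08 ± 0.09, edgeR's adjusted p = 0.577). The highest peak away from promoters, 37568 bp upstream (chr18:47968125-47968328), had 657, 632 and 669 normalized counts in control and 534, 593 and 656 with dm-αKG. The groups overlapped in part (log2 fold change -0.15 ± 0.07, edgeR's adjusted p = 0.163). A peak past the 3′ end of the gene (chr18:47772728-47772931) had the smallest p, with a log2 fold change of -0.57 ± 0.25 (edgeR's adjusted p = 0.107).

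FOXH1 lies in a gene-dense stretch of chromosome 8, and 42 of its 43 peaks were nearest to the start of another gene. Its own promoter peak (chr8:144475741-144475947, in an exon) had 210.2, 209 and 223 normalized counts in control and 216, 229.6 and 229 with dm-αKG (log2 fold change 0.07 ± 0.11, edgeR's adjusted p = 0.729). In the window, 5 peaks rose (11.6%, against 3.34% of all peaks) and 2 fell (4.65%, against 6.54%). An unadjusted p below 0.05 was found at 14 (32.6%, against 30.7%). DESeq2 called 1 lower and 0 higher, and limma-voom 1 lower and 5 higher. The rising peaks lay at VPS28 (log2 fold change 0.58), KIFC2 (0.29), PPP1R16A (0.57), MFSD3 (0.42) and RECQL4 (0.63), all within 1 kb of a start of those genes. Each of these 5 calls was lost without at least 4 of the 6 libraries left out singly, and over all 6 such fits, with the call kept or lost, their log2 fold changes ran from 0.21 to 0.82.

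The clearest change in the FOXH1 window was a fall 8604 bp upstream, in an intron of PPP1R16A, which encodes a regulatory subunit of protein phosphatase 1 (chr8:144484353-144484553). That peak went from 135, 123 and 158 normalized counts to 73.1, 84.7 and 74.8, with no overlap between groups (log2 fold change -0.84 ± 0.16, edgeR's adjusted p = 6.4e-05). It held in all 15 alternative fits. The other falling peak, beyond VPS28 (chr8:144423327-144423536), had a log2 fold change of -0.37 ± 0.10 (edgeR's adjusted p = 0.00805). Its call was kept without control 2 but lost without any 1 of the other 5 libraries, in DESeq2, in limma-voom and under 3 other scalings, with log2 fold changes between -0.46 and -0.27 over the 6 fits without 1 library.

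SMAD7 had 4 less accessible peaks among its 43 (9.30%, against 1.96% of all peaks) and none rising. It had 11 (25.6%, against 30.7% of all peaks) with an unadjusted p below 0.05. DESeq2 called 2 of the 4 and gave 2 of the 43 no adjusted p. The strongest was an intergenic peak 9028 bp upstream (chr18:48959890-48960095, the SMAD7 upstream sequence). It had 437, 450.5 and 475 normalized counts in control and 191, 198 and 225 with dm-αKG. Every control library was far above every dm-αKG library, and the level fell to 44.6% of control (log2 fold change -1.17 ± 0.10). It had the smallest p of the 251 peaks, with edgeR's adjusted p = 2.94e-17, and held in all 15 alternative fits.

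A weaker peak 54015 bp from the SMAD7 start, past the other end of the gene (chr18:48896850-48897049), went from 101, 102 and 77.7 normalized counts to 41.6, 44.9 and 55.4 (log2 fold change -1.03 ± 0.20, edgeR's adjusted p = 6.48e-05). Its adjusted p stayed below 0.01 in all 15 alternative fits. Its log2 fold change was short of the fold threshold without control 1 (-0.96), control 2 (-0.95) or dm-αKG 1 (-0.92). The remaining 2 were low and close together. At 17212 bp upstream (chr18:48968077-48968276) the normalized counts went from 37.6, 43.6 and 29.2 to 17.2, 23.1 and 7.48 (log2 fold change -1.18 ± 0.33, edgeR's adjusted p = 0.00637). At 17632 bp upstream (chr18:48968497-48968696) they went from 51.0, 55.1 and 44.9 to 24.4, 25.7 and 22.5 (log2 fold change -1.06 ± 0.27, edgeR's adjusted p = 0.00257). The groups did not overlap at either. The first call was lost without control 1 (-1.16), control 2 (-1.03), dm-αKG 1 (-1.23) or dm-αKG 3 (-0.92), and the second without control 1 (-1.05), control 2 (-0.98) or dm-αKG 1 (-1.06).

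The promoter of SMAD7 did not pass. Its peak (chr18:48951717-48952071) had 224, 217 and 160.3 normalized counts in control and 223, 273 and 207 with dm-αKG (log2 fold change 0.21 ± 0.12, edgeR's adjusted p = 0.225). The highest peak of the window, in a SMAD7 intron (chr18:48937541-48937740), had 498, 476 and 508 normalized counts in control and 446, 417 and 458 with dm-αKG. The groups were apart, but the log2 fold change of -0.16 ± 0.08 did not pass (edgeR's adjusted p = 0.152).

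**Figure D4:**
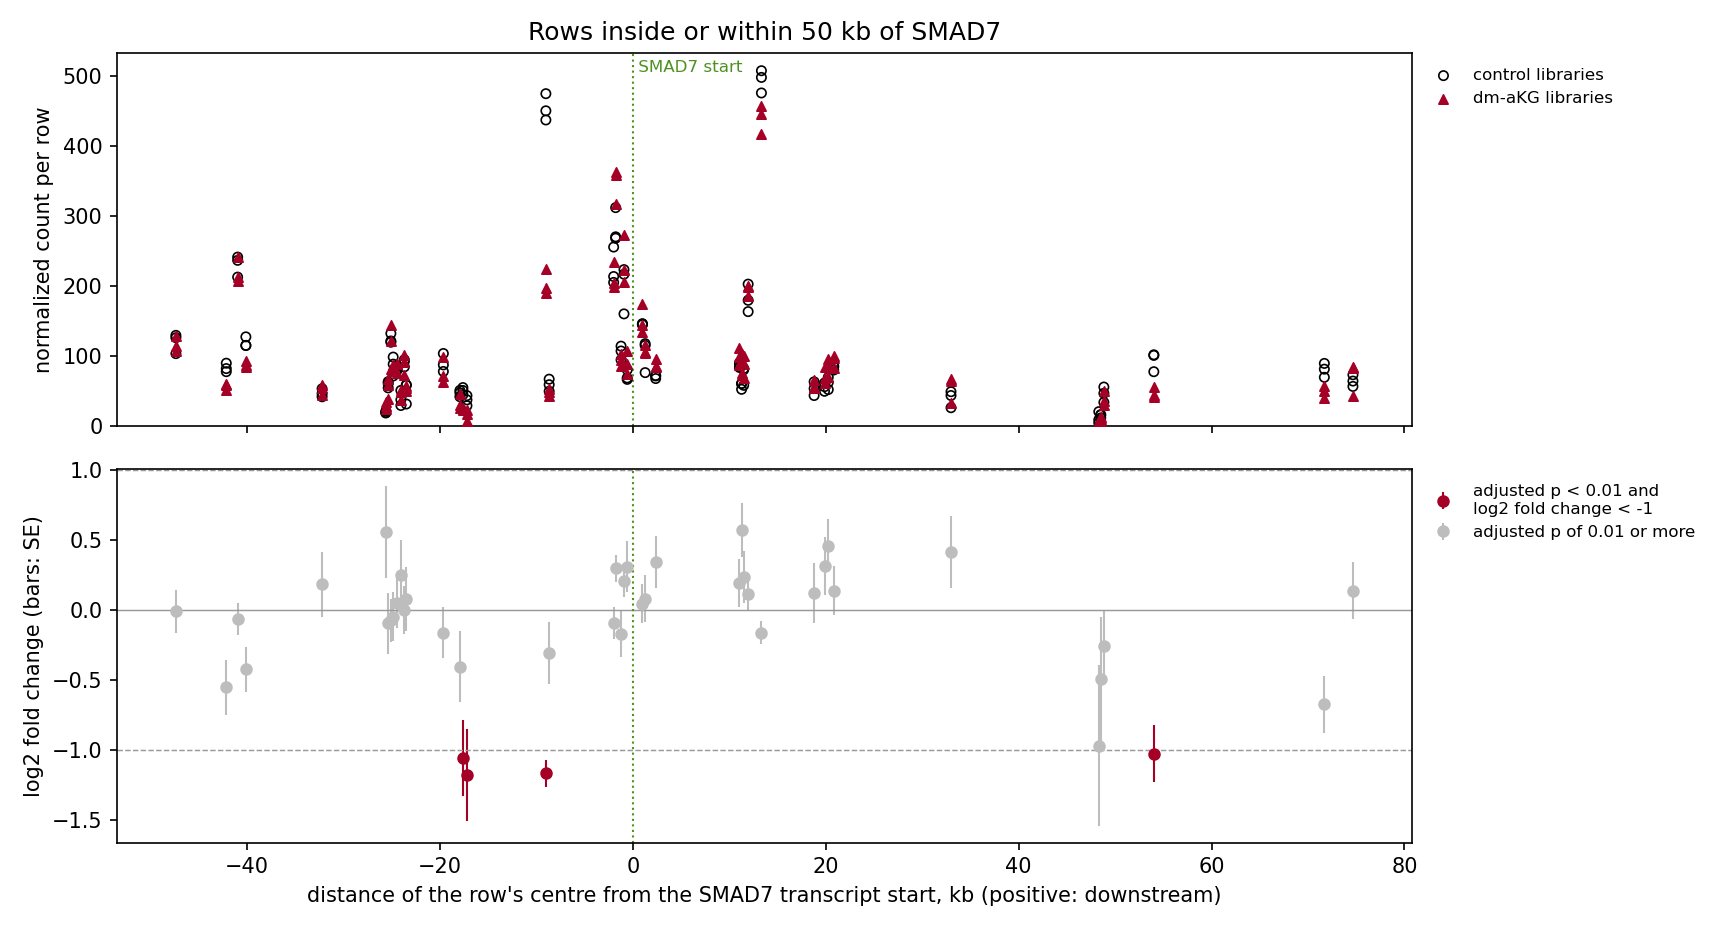
Peaks inside or within 50 kb of SMAD7 by distance in kb from its start, with normalized counts per library above and log2 fold change with its SE below. At the peak 9028 bp upstream the 3 control libraries lie between 437 and 475 and the 3 dm-αKG libraries between 191 and 225, whereas at the promoter peak, 929 bp upstream, the counts of the 2 groups overlap.

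SKIL had 1 less accessible peak among 18 (5.56%, against 1.96% of all peaks) and none rising. It had 2 (11.1%, against 30.7% of all peaks) with an unadjusted p below 0.05. DESeq2 called none and gave 3 of the 18 no adjusted p. The peak was intergenic, 26342 bp upstream (chr3:170331273-170331472, the SKIL upstream sequence), and weak. It went from 53.7, 37.8 and 31.6 normalized counts to 10.8, 20.5 and 25.4 (log2 fold change -1.23 ± 0.32, edgeR's adjusted p = 0.00326). The groups did not overlap, but the call was lost without control 1 (-0.97), without dm-αKG 1 (-0.85) and in DESeq2 (-1.19). The SKIL promoter peak (chr3:170356760-170357208), the highest of the 251 per peak, had 1251, 1142 and 1153 normalized counts in control and 1155, 1161 and 1168 with dm-αKG. Its log2 fold change was -0.03 ± 0.06 (edgeR's adjusted p = 0.809).

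Promoter peaks were compared between genes as normalized counts per 200 bp, since peaks differ in width. In control, the promoter of NODAL had the highest level (737 ± 27.3, SD, n = 3) and was followed by LEFTY1 (629 ± 21.2), SKIL (526 ± 26.9), TDGF1 (503 ± 54.6), SMAD2 (368 ± 15), ACVR2B (351 ± 18.7), LEFTY2 (288 ± 24.8), FOXH1 (207 ± 7.84), ACVR1B (150.4 ± 8.13) and SMAD7 (113 ± 19.6). The libraries of SKIL and TDGF1 overlapped, as did those of SMAD2 and ACVR2B, and the other neighbours in that order did not. NODAL's rank rests on the choice of peak, since its promoter peak lay 986 bp upstream of the canonical start. The peak over that start (chr10:70441574-70441776, 203 bp wide) had 238 ± 16.2 normalized counts in control (SD, n = 3). With dm-αKG the level of TDGF1 was 367 ± 35.9, below that of SMAD2 (385 ± 42.7), although the libraries of these genes overlapped. Only the TDGF1 promoter passed among the 10, in edgeR at adjusted p below 0.01. The other 9 had log2 fold changes between -0.03 and 0.21.

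**Figure D5:**
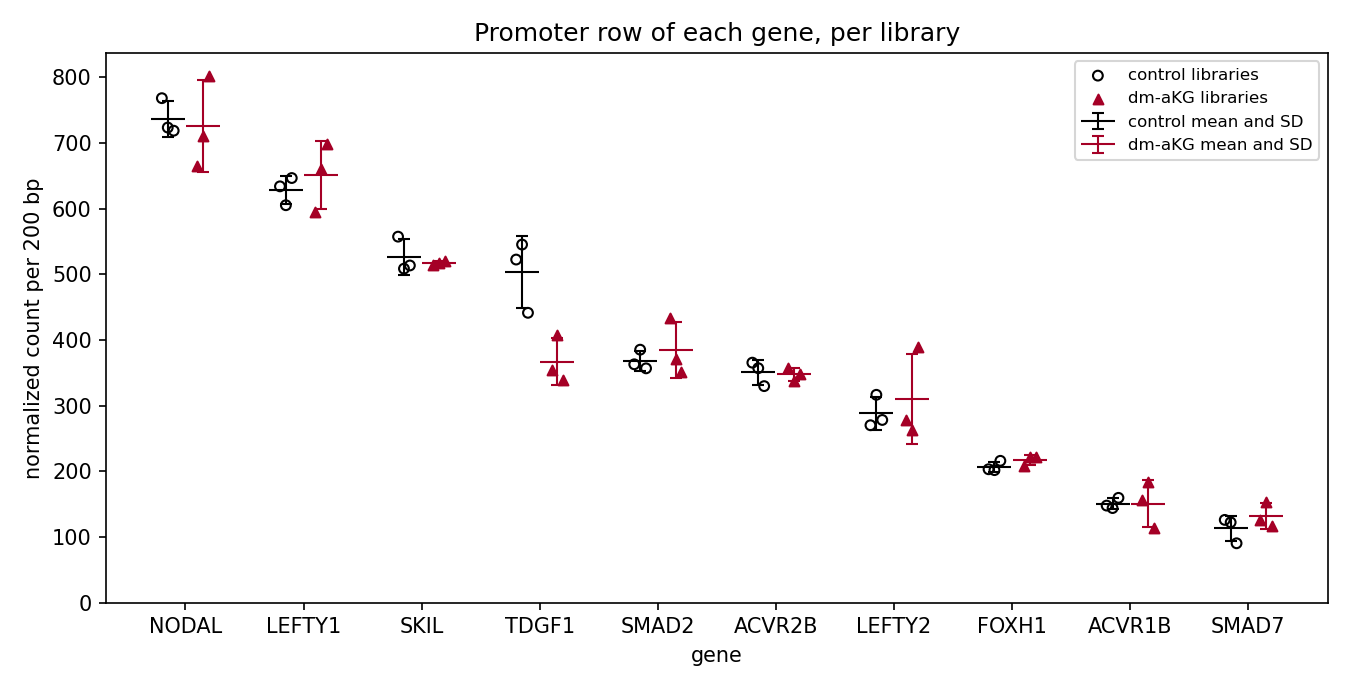
Normalized counts per 200 bp at the promoter peak of each gene, 1 symbol a library, with the mean and SD of each group and the genes in order of their control mean. The control and dm-αKG libraries overlap at every gene but TDGF1, where control lies at 503 ± 54.6 and dm-αKG at 367 ± 35.9 (SD, n = 3).

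Normalized counts were also summed over the peaks of each window. The log2 ratio of dm-αKG to control was -0.43 at TDGF1, -0.13 at LEFTY2, -0.11 at LEFTY1 and -0.09 at SMAD7. It was 0.05 at NODAL, 0.10 at FOXH1 and 0.10 at ACVR1B. In these 7 windows the sums of the 2 groups did not overlap, whereas they did at SMAD2 (-0.01), ACVR2B (0.01) and SKIL (0.02). A separation of 3 against 3 has a two-sided exact permutation p of 0.1 at best, so the sums carry no test. Among single peaks, the groups were apart at 38 of the 251 with dm-αKG lower and at 44 with dm-αKG higher, or 15.1% and 17.5%, against 16.9% and 15.5% of all peaks.

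The FOXH1 word TGTGNATT stood in the central 200 bp of 13 of the 251 peaks (5.18%), against 2.86% of all peaks. The LEFTY windows held 6 of these 13, NODAL 3, and TDGF1, SMAD2, SMAD7 and ACVR1B 1 each. No word was counted over all 11213 peaks that fell, so the shares of the 23 given here have no like background. The FOXH1 word stood in 4 of the 23 peaks that fell (17.4%). Among them were the peaks 19835 bp upstream of the canonical LEFTY1 start, 4451 bp upstream of LEFTY2 and 27020 bp downstream of TDGF1. The first of these also held the SOX core and the second held the SMAD box. Of the 12 less accessible peaks, 1 (8.33%) held the FOXH1 word, against 4.70% of all 3365 less accessible peaks. The SMAD box CAGACA was in 39 of the 251 (15.5%, against 14.9% of all peaks) and in 6 of the 23 (26.1%). It was in 3 of the 12 less accessible (25%), against 18.5% of all 3365. The OCT octamer ATGCAAAT was in 6 of the 251 (2.39%, against 2.3%) and in none of the 23. It was in 6.36% of all 3365 less accessible peaks. The remaining words were the SOX core CCATTGT (8 of 251, 3.19% against 2.70%), the KLF word GGGNGTGG (42, 16.7% against 13.7%), the AP-1 word TGANTCA (17, 6.77% against 6.33%), the TEAD word GGAATGT (12, 4.78% against 4.49%), the T-box word AGGTGTGA (4, 1.59% against 1.39%) and the SMAD palindrome GTCTAGAC (1, 0.398% against 0.163%). Of the 23 peaks that fell, 3 held the SOX core (13.0%) and 5 the KLF word (21.7%). The AP-1 word was in 2 (8.70%), the T-box word in 1 (4.35%), and the TEAD word and SMAD palindrome in none. Of the 12 less accessible, the SOX core was in none and the KLF word in 3 (25%), against 8.14% and 13.9% of all 3365. These 12 held the AP-1 word in 2 (16.7%, against 6.09% of all 3365). They held the TEAD word, T-box word and SMAD palindrome in none, against 9.03%, 2.91% and 0.0892%. All of these are matches of letters, with no test, and neighbouring peaks can belong to 1 element.

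Base composition differed between the peaks that fell and those that rose. The median GC content was 52.5% over the 23 that fell, 50.0% over the 12 less accessible, 73.0% over the 7 that rose and 60.0% over the 251, against 55.5% over all peaks and 49.0% over all 3365 less accessible peaks. Its part in the counts was not tested.

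Another 34 genes of the NODAL, activin and TGFβ pathways, listed by role, had 696 further peaks in windows of the same size. Of these, 42 fell (6.03%, against 6.54% of all peaks) and 40 rose (5.75%, against 3.34%). By the rule with the fold threshold, 16 were less accessible (2.30%, against 1.96%) and 11 more accessible (1.58%, against 0.782%). Their median log2 fold change was 0.07. Of the 34, 31 had a promoter peak, and 3 of these fell by edgeR's test. They were the promoters of GDF3, a ligand that also needs a co-receptor, of FST, the activin-binding protein follistatin, and of SMAD6, an inhibitory SMAD like SMAD7.

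The SMAD6 promoter peak had 368, 422 and 367 normalized counts in control and 278, 258 and 314 with dm-αKG (log2 fold change -0.46 ± 0.09, edgeR's adjusted p = 0.000153). Its window had 10 falling peaks of 38 (26.3%, against 6.54% of all peaks) and none rising (against 3.34%). Of the 38, 6 were less accessible (15.8%, against 1.96%). The FST promoter peak went from 129, 94.5 and 94.7 normalized counts to 68.8, 65.4 and 38.9 (log2 fold change -0.83 ± 0.19, edgeR's adjusted p = 0.000613). The GDF3 promoter peak went from 376, 407 and 389 to 294, 273 and 326 (log2 fold change -0.40 ± 0.09, edgeR's adjusted p = 0.000806). In all 3 the groups were apart. The largest change of the 696 was in the window of ZFYVE9, the SMAD anchor SARA (chr1:52184627-52184826), from 53.2 ± 7.39 to 16.6 ± 6.11 normalized counts (SD, n = 3, log2 fold change -1.69 ± 0.29, edgeR's adjusted p = 7.2e-06).

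The libraries held between 13025674 and 26828622 counts in peaks, and the Pearson correlation of log counts across peaks was 0.942 to 0.966 between libraries of one treatment and 0.911 to 0.928 between treatments. Promoter peaks of the pluripotency genes POU5F1, SOX2, NANOG, KLF17, KLF4, DPPA5 and TFCP2L1 had 201 to 521 normalized counts in control, and DPPA3 had no promoter peak. Of these 7, KLF17 fell (log2 fold change -0.39, edgeR's adjusted p = 0.001). Of 5 primed-state markers, DUSP6, a target of MEK signalling, fell (-0.30, edgeR's adjusted p = 0.00928), although its control and dm-αKG libraries overlapped. The promoters of 4 trophoblast, 4 primitive endoderm and 3 fibroblast markers had 133 to 263, 140.4 to 249 and 190.2 to 199.7 normalized counts in control, so an open promoter did not mark the labelled cell type. Their log2 fold changes lay between -0.21 and 0.31, the highest at GATA6 (edgeR's adjusted p = 0.029). COL3A1 had no promoter peak.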

How the data were processed

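Per the study's methods, the authors ran the ENCODE ATAC-seq pipeline on hg38 once per treatment. The pipeline trims reads, aligns them with Bowtie 2, filters them and calls peaks with MACS2 per replicate, keeping reproducible peaks. The authors cut peaks of both treatments to 200 bp around the summit, merged them and deposited the read counts per merged peak and library, made with bedtools 2.28.0. The deposited peak lists give a score, a fold enrichment (a ratio over background) and a −log10 q-value per treatment, and were read only for where summits lay. Counts were tested with edgeR 4.0.16 in R 4.3.3 (TMM scaling, quasi-likelihood, two-sided, all 171517 peaks, Benjamini-Hochberg), with thresholds of 0.01 and a log2 fold change of 1 from the study's methods. Depth was 13025674 to 26828622 counts per library. Named peaks were each gene's promoter peak (the highest within 1 kb of a start), every peak with an adjusted p below 0.01, the smallest p and the peak with the most counts away from promoters. For the other pathway genes they were promoter peaks with an adjusted p below 0.01 and the largest change. Genes, lists and words were chosen with earlier results of these data known. On simulated data, edgeR recovered 66% to 100% of planted changes of 0.25 to 4-fold with 1 false call, or 3 without the fold threshold. The simulated spread followed the trend over all peaks, with none particular to a peak. Changes were planted only above a minimum mean count, so the real data can do worse. DESeq2 1.42.0 and limma 3.58.1 were alternatives. No sample was left out, and 2 of the called peaks are counted but not reported here singly. Repeats of 61-base stretches were counted in hg38. Same-numbered libraries of the 2 groups did not deviate together (r from -0.016 to 0.013).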

Additional observations from a re-analysis of the deposited data

How the results depend on the processing

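The counts of calls moved with the fit and with the window. Shares over all peaks were not taken for the other fits, so whether all peaks moved alike cannot be told. Over all 6 fits that leave out 1 library, the peaks of the 10 genes less accessible numbered 8 to 13 (12 with all libraries), more accessible 0 to 0, lower 14 to 22 (23) and higher 1 to 11 (7), and those of the other pathway genes 28 to 47 lower (42) and 23 to 44 higher (40). Leaving out dm-αKG replicate 1, the deepest library, gave 14 lower and 1 higher, and 25 higher at the other pathway genes. The higher count was 2, 1 and 3 without control replicates 1, 2 and 3, and 1 and 11 without dm-αKG replicates 2 and 3, and without control replicate 1 the other pathway genes had 23 higher. DESeq2 gave 9 less accessible, 16 lower and 1 higher, with 27 lower and 21 higher at the other pathway genes. An adjusted p threshold of 0.05 gave 20 higher, with 67 lower and 79 higher at the other pathway genes. With all libraries in edgeR, 1.96% of all peaks were less accessible, 6.54% lower and 3.34% higher, whatever the window. Windows of 10 kb, which hold 111 peaks, gave 1 less accessible, 10 lower and 1 higher (other pathway genes 19 lower, 19 higher). All but 1 of the 12 less accessible peaks thus lay more than 10 kb from the 10 genes. Windows of 100 kb, with 373 peaks, gave 11 higher (other pathway genes 71 lower). The genes and 5 kb upstream, with 76 peaks, gave 0 less accessible, 6 lower and 0 higher (other pathway genes 12 lower, 16 higher), since most calls lie farther out.

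Of the 30 called peaks, 13 kept the call in all 15 alternative fits, including 9 at TDGF1, 2 at SMAD7, 1 at LEFTY1 and 1 in the FOXH1 window. No called peak changed sign. Among peaks with no call, the ACVR2B promoter at 38453189 had 0.0026, 0.0014 and 0.0041 on the log2 scale with total counts, upper quartile factors and loess offsets, and the ACVR2B peak at 38455403 had -0.018 after thinning. Without 1 library the sign also turned, within these ranges, at the promoters of NODAL (-0.11 to 0.037), LEFTY1 (-0.0087 to 0.12), LEFTY2 (-0.092 to 0.17), SMAD2 (-0.027 to 0.14), ACVR1B (-0.12 to 0.16), ACVR2B (-0.052 to 0.021) and SKIL (-0.048 to 0.022), and at the peaks starting at 52032999 (-0.037 to 0.047), 38455403 (-0.0026 to 0.064), 144496004 (-0.053 to 0.12) and 170310238 (-0.18 to 0.017). The replicate numbers do not pair the libraries, and a fit with them as a replicate block gave 13 less accessible, 24 lower and 7 higher (other pathway genes 41 lower, 40 higher). The median of all peaks stayed between 0.01 and 0.03 on the log2 scale under every scaling. Peaks with under 10 counts in a library, 12 of the 251, limit what could be called.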
